A study of Homo sapiens with 9 samples.

Results

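The transcriptome of HMEC-1 cells without any test compound was described from the 3 libraries of cells that received only the solvent DMSO, out of 9 libraries in the series. HMEC-1 is an established line of human dermal microvascular endothelium, immortalised with a viral large T antigen, and every library came from this line grown at 5.5 mM glucose. Control cells were kept with DMSO for 16 h before poly-A RNA was sequenced. The other groups, given AMI-1 or AMI-5 at 100 µM for the same time, served here only in that their tables set which genes had a row. The members were the rows of the union of both gene count tables, each identifier once, which gave 18690 rows, of which 18293 stood in both tables, 92 in the AMI-1 table only and 305 in the AMI-5 table only. The control counts did not differ between the tables in any shared row. Because all values come from 1 line, they describe no other endothelium, and no label says whether the 3 libraries were separate cultures, so each SD below measures only the spread between these libraries. Each control library also carries its own name prefix, shared with the treated libraries of that replicate, which no label explains. Differences between replicates cannot be told apart from whatever that prefix stands for.

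Endothelial cells line the inside of blood vessels. They are joined by VE-cadherin, the product of CDH5, and rest on a basement membrane of laminins and type IV collagen, while transcription factors of the ETS family act at many endothelial genes. In the skin the microvascular endothelium holds arterial, capillary and venous stretches and a separate lymphatic network, each known for its own receptors and secreted proteins. It senses flow, controls clotting through thrombomodulin and tissue plasminogen activator, and guides leukocytes through selectins and other adhesion molecules.

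The control libraries of replicates 1, 2 and 3 held 15547891, 16613031 and 23404145 counts, and single libraries are given in that order throughout. A level of 1 CPM, 1 count in 1000000, thus stood for 15.5, 16.6 and 23.4 reads. Levels of different genes were mostly compared as reads per kilobase of the longest annotated transcript, on the same scale (RPKM). They are given as mean ± SD over the 3 libraries (n = 3). Shares of counts, ranks by CPM, summed levels of lists and the colours of the HOX figure are in CPM and do not allow for length. The length of the union of all exons in place of the longest transcript lowered the RPKM of 184 of 775 listed genes more than 1.5 times, and those values are given where a statement turns on them. No test was made, since a single group holds no contrast.

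Control replicate 2 stood apart from the other libraries by base composition. Over 10617 rows with a mean of at least 10 CPM, the deviation of a library from the mean of the 3 in log2(CPM + 1) ran with the GC content of the transcript, with a Pearson correlation across genes of 0.851 in replicate 1, -0.87 in replicate 2 and 0.621 in replicate 3. These genes share the 3 libraries and are not independent. Each deviation is taken from the mean of the same 3 libraries, so the correlations are tied and cannot show which library is biased. In the 2124 rows poorest in GC (26.5% to 41%) replicate 2 deviated by a median of 0.39, and in the 2124 richest (57.8% to 73.9%) by -0.44. Replicate 1 deviated the other way in the same groups, by -0.32 and 0.32. The libraries of replicates 1 and 3 were the closest pair, with a Pearson correlation of log2(CPM + 1) of 0.9898 over all rows, against 0.9819 for replicates 2 and 3 and 0.9628 for replicates 1 and 2. A GC-rich gene that reads low in replicate 2 below, or a GC-poor gene that reads high there, follows this pattern.

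**Figure D1:**
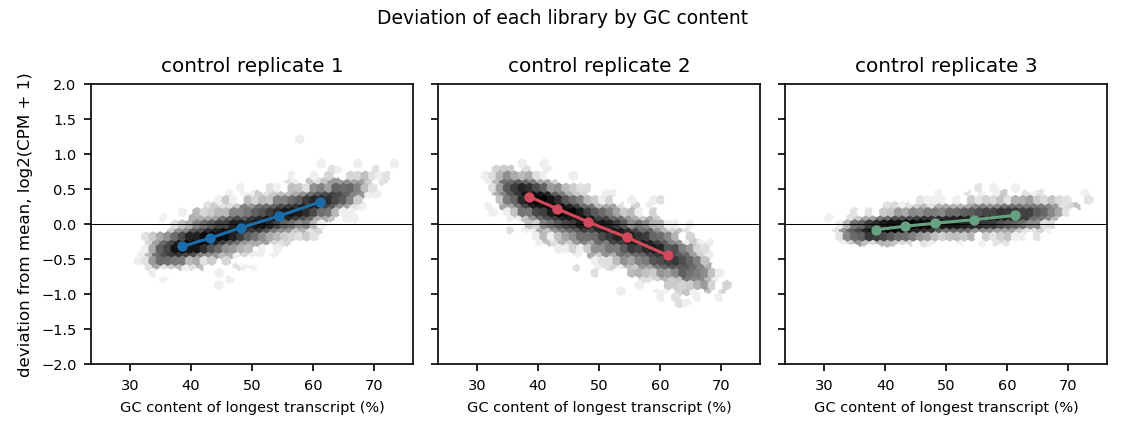
Deviation of each control library from the mean of the 3 in log2(CPM + 1), on the y axis, against the GC content of the longest transcript in percent, on the x axis, for 10617 genes shaded by their density, with the medians of 5 equal groups by GC content as joined points. The medians rise with GC content in replicates 1 and 3 and fall in replicate 2, from 0.39 to -0.44.

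The label of the cells was checked against FN1, CDH5 and ENG. FN1 encodes fibronectin, a matrix glycoprotein that endothelium and many other cells make, and it read 1055, 1176 and 945 RPKM in the 3 libraries (1059 ± 116). CDH5, the endothelial cadherin, read 46.5, 36.3 and 43.99 RPKM (42.3 ± 5.35), and ENG, which encodes the TGF-beta co-receptor endoglin, read 188, 117 and 155 RPKM (154 ± 35.5). All 3 markers were thus well above the median of protein-coding rows, 8.55 RPKM, in every library. ENG, at 63.3% GC, and CDH5 were lowest in replicate 2, whereas FN1 was highest there. Without replicate 2 the means were 1000 RPKM for FN1, 45.3 for CDH5 and 172 for ENG. FN1 fell from 1059 to 561 RPKM when divided by the union of its exons.

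FN1 also took the largest share of each control library, 0.968%, 1.08% and 0.867% of counts. The 20 highest rows by mean CPM held genes of the cytoskeleton, of matrix and of the mitochondrial genome. The beta and gamma actin genes ACTB and ACTG1 stood at 7167 ± 1287 and 5709 ± 942 CPM, MYH9, the heavy chain of non-muscle myosin, at 4856 ± 1291, and FLNA, the actin cross-linker filamin A, at 4784 ± 1569. VIM, the intermediate filament gene vimentin, AHNAK, a large scaffold protein gene, and PLEC, the linker plectin, were also among the first 20. Secreted products in that group included THBS1 (thrombospondin-1) at 4476 ± 812 CPM and COL1A1 (the alpha-1 chain of type I collagen) at 3294 ± 651. The translation factor EEF2, the glycolytic enzyme gene ENO1, the mitochondrial messages MT-ND4, MT-CYB, MT-CO1, MT-ND5, MT-CO2 and MT-CO3, and the mitochondrial large ribosomal RNA were among the 20 as well.

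Of those 20 rows, 19, 17 and 20 were also among the 20 highest of replicates 1, 2 and 3. PLEC was the most uneven of the 20 on the log scale: it read 3417, 889.8 and 2222 CPM, lowest in replicate 2, and its transcript is 66.97% GC.

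Per length the order was another. Of the 20 highest rows by RPKM, 12 were mitochondrial messages and 1 the mitochondrial large ribosomal RNA, led by MT-ND4L at 4611 ± 1698 RPKM, whose exon overlaps that of MT-ND4, so that reads of the pair cannot be separated. Nuclear genes among the 20 included ACTB at 3192 ± 573 RPKM, ACTG1 at 2531 ± 418, TMSB10 (thymosin beta-10, which binds monomeric actin) at 2140 ± 308, LGALS1 (galectin-1, a secreted sugar-binding protein) at 1822 ± 422 and PFN1 (the actin-binding profilin-1) at 1176 ± 316. Another of these rows, RP11-386G11.10, lies antisense over TUBA1B, and without strand in the counting its reads cannot be told from those of that tubulin gene. FN1 came at rank 22 on this scale. Mitochondrially encoded rows together held 2.7% to 3.85% of counts, most in replicate 2.

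The counts were spread over many genes. The 10 highest rows of a library held 5.45% ± 0.275 of its counts, the 100 highest 17.54%, 16.87% and 16.58%, and 1261 rows together made up 50% of the mean CPM. At least 1000 CPM in every library was reached by 46 rows, at least 100 CPM by 1881 and at least 10 CPM by 10076. Protein-coding genes made up 12956 rows and 93.4% of counts.

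At least 1 CPM in all 3 libraries was reached by 15891 rows, 85.0% of all. Of the 12956 protein-coding rows, 12039 reached that level, a higher share than over all rows. Counts of listed genes below are to be read against these shares, since a row exists only for genes that the deposited tables kept. The smallest mean count of any row over the 6 libraries of a table was 10. A gene that was counted but fell under that mean in both tables could have had at most 59 control counts, or 1.06 CPM over the 3 libraries together. Whether a gene without a row was counted at all is not stated in the sources used. Over all lists, 776 of 1153 listed genes had a row, and the number with a row in each list is to be read against that.

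Genes of endothelial surface and secreted proteins spanned more than 3 orders of magnitude. Of 47 listed genes, 42 had a row, and 37 of them reached 1 CPM in every library. Above the median of protein-coding rows lay 22 of the 42, near the share that a median gives by definition. The highest were coats of caveolae, the membrane pits for which endothelium is known: PTRF (cavin-1) read 447, 282 and 383 RPKM and CAV1 (caveolin-1) 246, 383 and 290.0. PTRF was lowest and CAV1 highest in replicate 2, and the transcripts are 59.9% and 46.2% GC. CD59, an inhibitor of complement, stood at 166 ± 29.5 RPKM, PODXL, the sialomucin podocalyxin, at 125 ± 5.80, and GJA1, the gap junction protein connexin-43, at 106 ± 34.3. CAV1 exceeded CAV2 7.89 ± 0.75 times per length, or 13 times by exon union.

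A middle group held adhesion molecules and receptors that mark endothelium. MCAM, the adhesion molecule CD146, read 63.7 ± 11.6 RPKM, PROCR, the receptor of activated protein C, 43.1 ± 4.44, THBD, which encodes thrombomodulin, 38.8 ± 4.04, and ECSCR, an endothelial sialomucin, 38.6 ± 1.99. TIE1, an orphan tyrosine kinase of the angiopoietin receptor family, read 49.2, 30.5 and 41.2 RPKM, lowest in replicate 2. EGFL7, a secreted endothelial matrix protein, stood at 35.2, 14.1 and 28.6 RPKM, with replicate 2 at less than the other libraries again at 68.1% GC. TEK, the angiopoietin receptor TIE2, followed at 16.5 ± 3.19 RPKM, ROBO4, a guidance receptor of endothelium, at 14.9 ± 3.26, S1PR1, the main endothelial receptor of sphingosine-1-phosphate, at 14.6 ± 0.855, and CD93 at 13.3 ± 0.174.

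Several genes by which endothelium is commonly identified were low. VWF, the clotting protein stored in Weibel-Palade bodies, had 142, 89 and 139 counts in the 3 libraries, 6.66 CPM (6 to 7.37) when pooled with an exact Poisson interval at 95% that covers counting error only, and 0.771 ± 0.230 RPKM. KDR, the main signalling receptor of VEGF, read 2.57, 3.23 and 2.77 RPKM, and FLT1, its decoy-like relative, 0.907, 1.07 and 0.958. The groups of 3 values did not overlap, and KDR stood 2.83, 3.02 and 2.9 times above FLT1 per length, or 4.77 times by exon union. TIE1 was 19.1, 9.44 and 14.9 times KDR per length, or 9.1 times on average by exon union. NOS3, the endothelial nitric oxide synthase, stood at 3.13 ± 0.756 RPKM, and its exons overlap those of ATG9B on the other strand. CD34 was at 4.41 ± 1.01 RPKM, PLVAP, the diaphragm protein of fenestrae, at 5.93 ± 1.03, EMCN (endomucin) at 1.02 ± 0.273 and ESAM, a junctional adhesion molecule, at 0.480 ± 0.215. ESAM was at 22, 9 and 33 counts, under 1 CPM in replicate 2 only.

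BST2 and ANGPT2, which encode tetherin and the TIE2 ligand angiopoietin-2, were under 1 CPM in all 3 libraries, with 0.432 CPM (0.277 to 0.643) and 0.720 CPM (0.514 to 0.980) pooled. AQP1, the water channel, and GPR116 (ADGRF5), an adhesion receptor, passed 1 CPM only in replicate 3, the deepest library. PECAM1, CLDN5, MMRN1, SELE and SELP had no row in the tables used here. The last pair are the selectins that catch rolling leukocytes. Of the other leukocyte adhesion molecules, ICAM2 read 6.55 ± 1.44 RPKM, ICAM1 3.45 ± 0.990 and VCAM1 1.88 ± 0.0974.

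**Figure D2:**
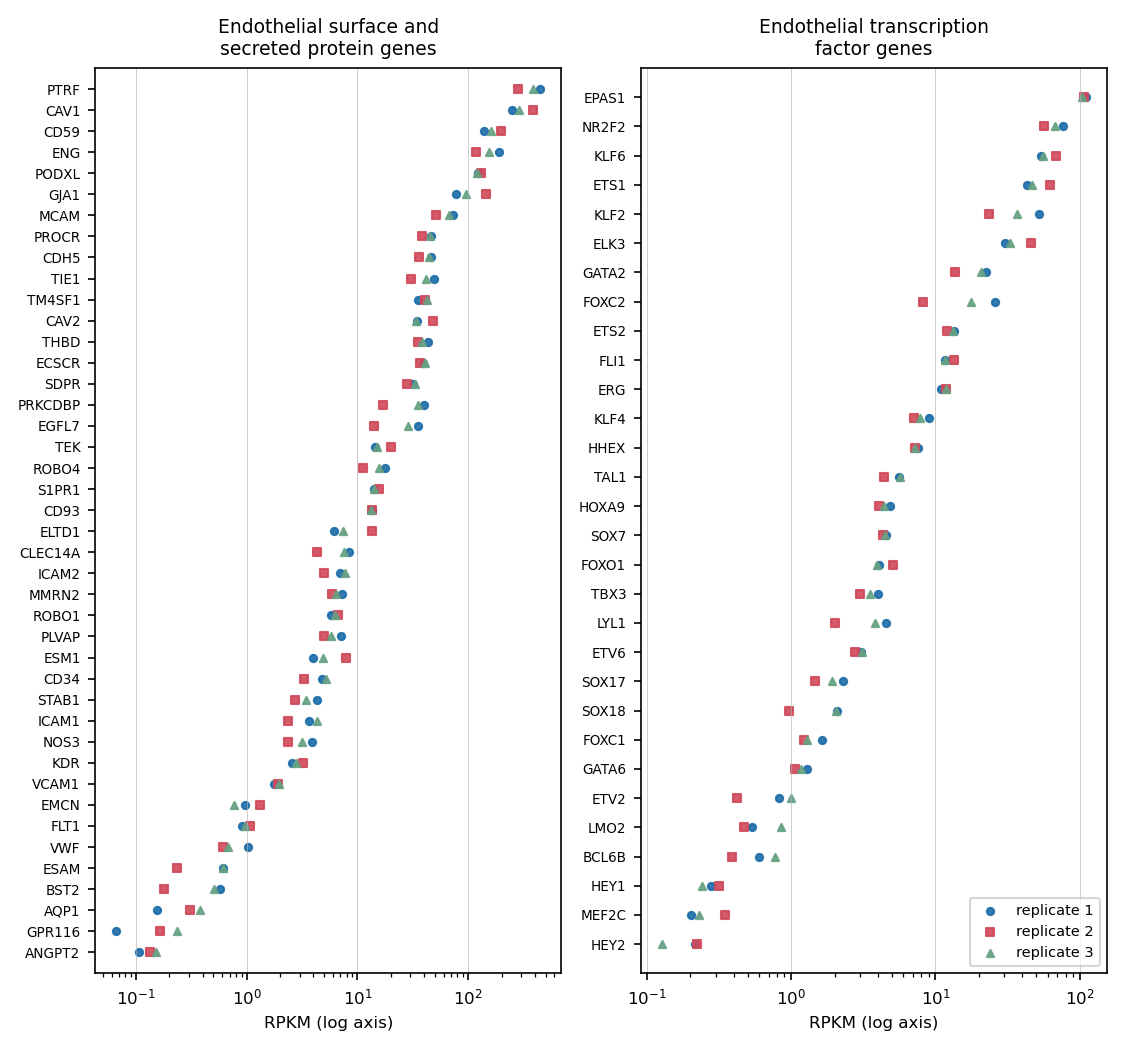
Level of each endothelial gene with a row, in RPKM on a log x axis, with 1 symbol per control library. On the left are surface and secreted protein genes, from PTRF at a mean of 370.5 down to ANGPT2 at 0.130 RPKM, and on the right transcription factor genes, from EPAS1 at 107 down to HEY2 at 0.190; the squares of replicate 2 are often the outermost.

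The promoter sequences of ENG and TIE1, with high and middle levels, are shown with that of SELE, which had no row. They are the 250 bases before the RefSeq gene start in GRCh38.p14, written 5′ to 3′ on the strand of the gene, with GGAA, the core of ETS factor sites, and its complement TTCC in capitals.
ENG: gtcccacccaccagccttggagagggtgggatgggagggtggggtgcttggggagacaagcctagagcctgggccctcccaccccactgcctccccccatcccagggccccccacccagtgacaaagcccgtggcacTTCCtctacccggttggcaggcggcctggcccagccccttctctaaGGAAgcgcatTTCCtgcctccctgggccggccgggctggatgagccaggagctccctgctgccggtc
TIE1: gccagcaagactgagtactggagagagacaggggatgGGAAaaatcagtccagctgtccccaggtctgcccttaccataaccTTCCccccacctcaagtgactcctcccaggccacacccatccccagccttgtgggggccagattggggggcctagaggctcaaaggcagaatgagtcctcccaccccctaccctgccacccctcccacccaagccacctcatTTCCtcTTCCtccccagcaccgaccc
SELE: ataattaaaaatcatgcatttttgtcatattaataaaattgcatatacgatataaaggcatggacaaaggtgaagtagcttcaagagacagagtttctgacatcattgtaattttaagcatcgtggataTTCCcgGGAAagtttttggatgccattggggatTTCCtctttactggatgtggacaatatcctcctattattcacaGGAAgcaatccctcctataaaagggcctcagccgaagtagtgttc
These lie at chr9:127854659-127854908 on the minus strand, chr1:43300732-43300981 on the plus strand and chr1:169734080-169734329 on the minus strand. The search for GGAA on both strands found 3 matches for ENG, 4 for TIE1 and 4 for SELE, while the median over 35116 promoters of this length was 3 and 92.7% held at least 1. The letters TATAAA occurred in the SELE promoter and in neither of the others, with 10.7% of all promoters holding them on either strand. GC content was 69.6% for ENG, 61.6% for TIE1 and 37.2% for SELE, against a median of 58%. A match of letters is a description and shows no binding.

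Of 30 listed endothelial transcription factor genes, all had a row and 27 reached 1 CPM in every library. EPAS1, which encodes the hypoxia factor HIF-2 alpha, was the highest at 110.1, 107 and 103 RPKM and differed little between the libraries. NR2F2, the nuclear receptor COUP-TFII of veins and lymphatics, followed at 76.1, 56.4 and 67.5 RPKM, KLF6 at 59.6 ± 8.01 and the ETS family member ETS1 at 50.5 ± 9.85. KLF2, the flow-induced factor, read 52.1, 23.6 and 36.5 RPKM, lowest in replicate 2, and ELK3, another ETS member, 36.4 ± 8.53. The ETS factors ERG and FLI1, widely used to define endothelium, were at 10.8, 11.8 and 11.9 and 11.7, 13.5 and 11.7 RPKM, above the median of protein-coding rows in each library. Outside the top of the list, GATA2 stood at 18.9 ± 4.54 RPKM, TAL1 at 5.21 ± 0.691, SOX7 at 4.43 ± 0.0888, SOX17 at 1.90 ± 0.421 and SOX18 at 1.69 ± 0.627. HEY1 and HEY2, transcriptional repressors downstream of Notch, were under 1 CPM in all 3 libraries, with 10, 12 and 13 and 9, 10 and 8 counts.

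Markers of vessel types did not point to a single one. For veins, 5 of 8 genes had a row and all 5 reached 1 CPM: NR2F2, EPHB4 (the venous ephrin receptor) at 22.4 ± 6.98 RPKM, TEK, NRP2 at 9.07 ± 0.630 and FLRT2 at 2.21 ± 0.294, while ACKR1, APLNR and SELP had no row. For arteries, 10 of 14 had a row and 7 reached 1 CPM. The VEGF and semaphorin co-receptor NRP1 led them at 40.4, 46.8 and 42.8 RPKM, followed by FBLN5 (fibulin-5) at 19.6 ± 5.39, the Notch ligand JAG1 at 17.4 ± 1.44, ACVRL1 at 15.5 ± 3.50 and EFNB2, the arterial partner of EPHB4, at 13.5, 13.8 and 13.6. EPHB4 exceeded EFNB2 2.1, 1.07 and 1.78 times by the longest transcript, but only 1.3 times on average by exon union. DLL4, the arterial Notch ligand, had 22, 6 and 46 counts, and GJA4, GJA5, CXCR4 and BMX had no row.

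For lymphatic vessels 4 of 10 genes had a row. PDPN (podoplanin) read 16.2, 17.2 and 16.5 RPKM, FLT4 (the VEGF-C receptor) 6.81, 3.18 and 5.51 and FOXC2 25.8, 8.26 and 17.8, the latter pair lowest in replicate 2. ITGA9 stood at 0.151 ± 0.0306 RPKM, and PROX1, the defining lymphatic factor, LYVE1, CCL21, RELN, TFF3 and MMRN1 had no row. For capillaries 6 of 10 had a row, none above the median of all rows, 6.6 RPKM: FABP5 at 4.80 ± 1.57 RPKM was the highest, followed by MFSD2A at 2.15 ± 0.331 and RBP7 at 1.81 ± 0.449. The fatty acid receptor CD36 (0.576 CPM (0.394 to 0.813)) and RGCC (0.702 CPM (0.499 to 0.959)) were under 1 CPM in all 3 libraries, and CA4, FABP4, BTNL9 and GPIHBP1 had no row.

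Genes of haemostasis ranged widely. Of 28 listed, 25 had a row, 23 reached 1 CPM in every library and 15 lay above the median of protein-coding rows. PLAT, tissue plasminogen activator, read 80.7, 62.7 and 82.1 RPKM and PLAU, urokinase, 56.7, 49.01 and 55.2, higher for PLAT in every library by the longest transcript. By exon union the order of the means was the reverse, with PLAT at 39.3 and PLAU at 48.3 RPKM. ANXA2 and S100A10, which form the cell surface complex that binds plasminogen and its activator, stood at 354 ± 19.2 and 311 ± 14.9 RPKM, and the urokinase receptor PLAUR at 34.5 ± 5.22. CD63, a membrane protein of Weibel-Palade bodies and other late endosomal organelles, read 232 ± 12.3 RPKM, and NT5E, the ectoenzyme CD73 that makes adenosine, 76.2 ± 8.85. On the anticoagulant side TFPI, the tissue factor pathway inhibitor, was at 36.2 ± 9.34 RPKM against 2.58 ± 0.389 for tissue factor itself, F3. PTGIS and PTGS2, of prostacyclin synthesis, and SELP had no row.

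Other lineages were checked with 11 marker lists. In bulk RNA a few cells with much of a transcript and many cells with little of it cannot be told apart. Fibroblast and mesenchymal genes had a row for 17 of 21, with 14 at 1 CPM in every library. VIM stood at 1090.4 ± 196 RPKM and COL1A1 at 595, 404 and 470.0, both of which many cultured cells make. CDH2 (N-cadherin) read 49.4, 72.7 and 55.7 RPKM and was 1.06, 2 and 1.27 times CDH5 per length, or 1.86 times on average by exon union. THY1 was at 21.9 ± 3.66 RPKM, TWIST2 at 10.3 ± 4.55 and PDGFRB, the PDGF receptor of mural cells and fibroblasts, at 9.27 ± 1.73. DCN, FAP, TCF21 and PRRX1 had no row. The summed level of the list was 8111, 5887 and 6874 CPM, most of it VIM and COL1A1.

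Smooth muscle and pericyte genes had a row for 11 of 14, with 10 at 1 CPM throughout. TAGLN, the actin-binding SM22 alpha, read 133, 104 and 124 RPKM, SMTN 37.99 ± 12.5 and CSPG4, the pericyte proteoglycan NG2, 40.1, 17.1 and 28.8, lowest in replicate 2. ACTA2, the smooth muscle actin, stood at 6.43 ± 1.07 RPKM, NOTCH3 at 4.95 ± 2.28 and the late contractile marker MYH11 at 1.52 ± 0.293, with exons that overlap NDE1. DES, KCNJ8 and ABCC9 had no row.

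Epithelial genes were split. KRT7, a keratin of simple epithelia, read 605, 396 and 513 RPKM (505 ± 105, or 216 by exon union), rank 49 of all rows, KRT18 129 ± 30.5 and KRT8, its filament partner, 22.98 ± 7.94. KRT18 and KRT8 annotations overlap, and KRT18 stood 5.81 ± 0.83 times above KRT8 per length, or 9.06 times by exon union. KRT10 stood just above the median of protein-coding rows at 9.49 ± 0.520 RPKM, and the other epithelial members with a row lay below it: the desmosomal genes DSP at 5.43 ± 0.298 and PKP1 at 4.02 ± 0.730, and KRT19, KRT14 and IVL under 1 CPM in every library. The defining genes EPCAM and CDH1, the keratinocyte genes KRT5, KRT1, TP63 and LOR, and ESRP1, GRHL2 and OVOL1 had no row. In all, 12 of 21 had a row and 9 reached 1 CPM in every library. CLDN7, ESRP2 and CLDN4 were among these at 1.16 ± 0.381, 0.552 ± 0.0945 and 0.321 ± 0.0661 RPKM.

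Blood, muscle, liver and fat genes were nearly empty. Of 15 leukocyte genes only CD68, a lysosomal protein gene, at 20.3, 14.4 and 19.3 RPKM, and CD14, with 38, 26 and 40 counts, had a row, and PTPRC, CD3E, MS4A1 and SPI1 were among the 13 without. The single erythroid or platelet gene with a row was ITGA2B, with 15, 12 and 13 counts. No muscle gene of 6 had a row. The hepatocyte list held SERPINA1 at 0.841 ± 0.0376 RPKM, the adipocyte list the fat regulator PPARG at 7.42 ± 0.607, and the melanocyte list MITF at 2.95 ± 0.450 and PMEL, which overlaps CDK2, at 1.05 ± 0.139.

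Of 10 neural genes 4 had a row, and TUBB3, a beta tubulin that dividing non-neural cells in culture also make, was the only high one at 117, 64.4 and 101 RPKM. NES (nestin) stood at 4.56 ± 1.42 RPKM, while RBFOX3, GFAP, SOX2 and NEFL were among those without a row. POU5F1, on the pluripotency list, read 31.3, 37.6 and 34.4 RPKM. Its exons overlap those of TCF19 on the other strand, it has processed pseudogenes, and NANOG, LIN28A, LIN28B and SOX2 had no row, so the value cannot be ascribed to that gene.

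**Figure D3:**
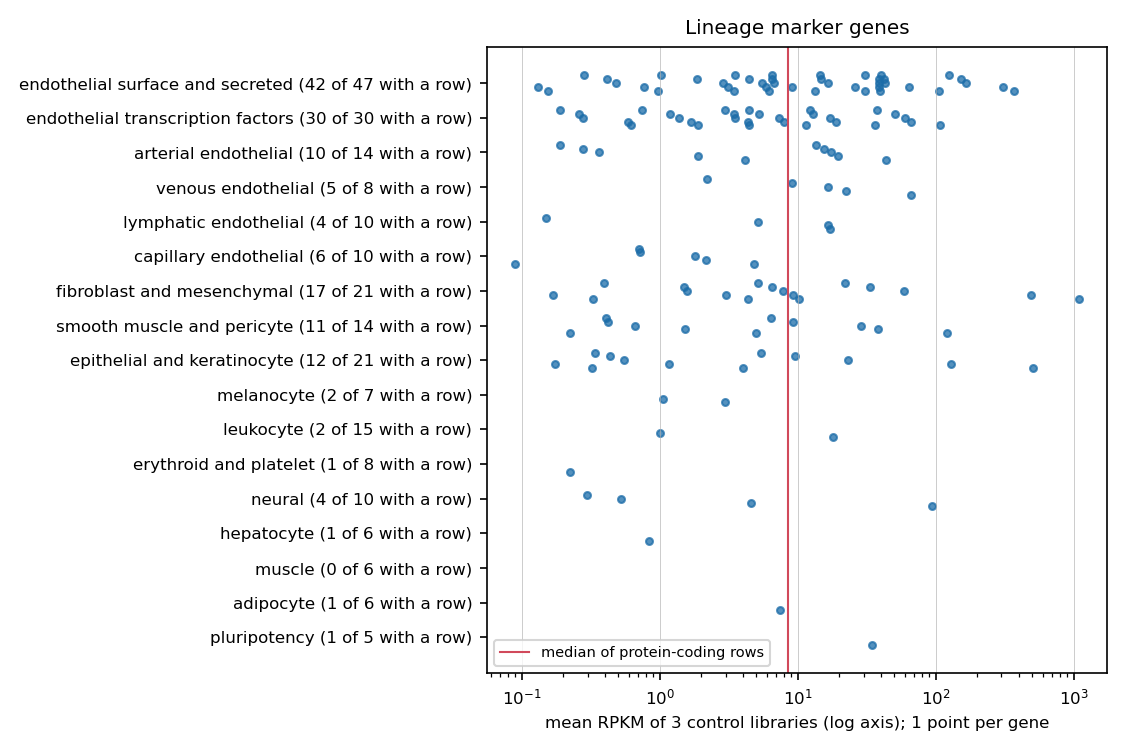
Mean RPKM over the 3 control libraries, on a log x axis, of each marker gene with a row, 1 point per gene, by lineage list on the y axis with the number of listed genes that had a row. Endothelial lists other than the capillary one, and the fibroblast and smooth muscle lists, reach above the red line at the median of protein-coding rows, 8.55 RPKM, as do KRT7, KRT18, KRT8 and KRT10 of the epithelial list and single genes of the neural, pluripotency and leukocyte lists; the blood, liver and muscle lists hold 0 to 2 points each.

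Among receptors, 38 of 58 receptor tyrosine kinase genes had a row and 34 reached 1 CPM in every library. AXL, the receptor of the vitamin K-dependent ligand GAS6, was far ahead at 286, 243 and 262 RPKM (264 ± 21.8). The next highest, the ephrin receptor EPHA2, read 57.9, 31.01 and 46.4 RPKM. AXL was 7.97, 14.9 and 9.23 times its ligand GAS6 per length, or 22.3 times on average by exon union, with GAS6 lowest in replicate 2 at 61.8% GC. PTK7 stood at 35.9 ± 8.25 RPKM, MET, the receptor of hepatocyte growth factor, at 27.96 ± 6.79 and ERBB2 at 24.1 ± 5.74, whereas HGF, the MET ligand, had no row. EGFR was nearly the same in each library at 18.6, 18.1 and 17.8 RPKM. The angiopoietin pair TIE1 and TEK stood in a ratio of 3.41, 1.51 and 2.75 per length, and 1.5 on average by exon union. Of 20 without a row, EPHA3, FGFR2, RET, FLT3, CSF1R and NTRK2 are examples.

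All 12 TGF-beta and BMP receptor genes with a row, of 15 listed, reached 1 CPM in every library. After ENG came TGFBR2, the type II TGF-beta receptor, at 83.2, 95.9 and 87.5 RPKM, then the type I receptors ACVR1 at 17.9 ± 2.80 and ACVRL1, the endothelial ALK1, at 15.5 ± 3.50, and the BMP receptor BMPR2 at 10.2, 17.5 and 11.5. TGFBR1, the type I partner of TGFBR2, stood at 9.92 ± 2.53 RPKM. BMPR2, at 37.6% GC, was highest in replicate 2 and ENG lowest there. ENG and then TGFBR2 led in every library. Below them the order was not fixed: ACVR1 read 15.7, 21.02 and 16.9 RPKM and ACVRL1 18.5, 11.7 and 16.4. ACVR1C, BMPR1B and AMHR2 had no row.

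Of 46 cytokine and death receptor genes, 37 had a row and 34 reached 1 CPM throughout. TNFRSF12A, the TWEAK receptor, read 122, 67.3 and 112 RPKM and TNFRSF1A, the main TNF receptor, 83.7, 57.2 and 77.7, both lowest in replicate 2. IL6ST, the shared signalling chain gp130, read 27.2, 50.9 and 32.7 RPKM and was highest in replicate 2, at 36.6% GC. LTBR stood at 36.8 ± 7.11 RPKM, IFNGR2 at 25.2 ± 0.793 and OSMR, the oncostatin M receptor, at 23.6 ± 1.57. CD40, IL22RA1 and NGFR were under 1 CPM in every library. Of 21 pattern recognition genes 13 had a row and 11 reached 1 CPM. By the longest transcript TMEM173, the DNA-response adaptor STING, had the highest mean at 11.6 ± 2.43 RPKM. TLR4, the receptor of bacterial lipopolysaccharide, read 8.65, 15.02 and 9.69 RPKM and NLRP1 10.9 ± 1.55. TLR4 was above TMEM173 in replicate 2, and also on average by exon union, at 10.8 against 9.63 RPKM. The TLR4 partner LY96 was at 3.65 ± 1.34 and its co-receptor CD14 at 1.01 RPKM, while TLR2, TLR5, TLR7, TLR8, TLR9 and NOD2 had no row.

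The Notch list was complete, with 19 of 19 rows and 15 at 1 CPM in every library. NOTCH2 was the highest receptor at 41.2, 38.4 and 37.8 RPKM and NOTCH1 read 14.4, 4.50 and 9.70, a ratio of 2.86, 8.53 and 3.9 that was largest in replicate 2. NOTCH4, the receptor known for its endothelial expression, was at 0.487 ± 0.182 RPKM. RBPJ, the DNA-binding partner of Notch, stood at 18.1 ± 5.45 RPKM, the coactivator MAML1 at 15.1 ± 2.12, the glycosyltransferase RFNG at 8.98 ± 3.42 and the target HES1 at 6.97 ± 1.06. JAG1 exceeded the other ligands at 18.4, 15.7 and 18.1 RPKM, and DLL1 was under 1 CPM in every library with HEY1 and HEY2.

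Of 23 Wnt receptor genes 18 had a row and 16 reached 1 CPM. FZD2 read 34.5, 15.3 and 26.5 RPKM, ROR1 20.1, 24.1 and 21.9 and FZD6 15.1, 26.8 and 20.1: FZD2 was lowest and FZD6 highest in replicate 2. FZD4, the receptor that retinal and other endothelium use for norrin, stood at 10.5 ± 0.462 RPKM, its co-receptor LRP5 at 12.2 ± 4.64, and TSPAN12, the third member of that complex, had no row. Of 21 guidance receptor genes 16 had a row, and all 16 reached 1 CPM. NRP1 (43.3 ± 3.20 RPKM) and the plexins PLXNB2 (49.05 ± 17.4), PLXND1 (38.2 ± 8.91), which binds semaphorin 3E in vessels, and PLXNA2 (31.2 ± 5.58) led them, with ROBO4 and PLXNA1 (14.6 ± 5.03) close together behind.

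Rows were sparse among vasoactive and lipid G protein-coupled receptors. Of 75 genes 34 had a row, against 776 of 1153 over all lists, and 25 reached 1 CPM in every library. F2R, the thrombin receptor PAR1, was the highest at 25.7, 34.3 and 25.9 RPKM, followed by S1PR1, the lysophosphatidic acid receptor LPAR1 at 14.04 ± 1.77, F2RL1 (PAR2) at 13.7 ± 3.35 and the prostaglandin receptor PTGER4 at 12.9 ± 1.48. P2RY11 shares exons with PPAN and EIF3G, so its 12.6 ± 3.10 RPKM cannot be ascribed to it. The histamine receptor HRH1 was at 10.7 ± 0.358 RPKM and CALCRL, the adrenomedullin receptor, at 7.19 ± 2.09. The angiotensin receptors AGTR1 and AGTR2, the bradykinin receptors BDKRB1 and BDKRB2, the endothelin receptor EDNRB and APLNR were among the 41 without a row.

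Chemokine receptors had 5 rows of 22 and 3 at 1 CPM. The highest, CXCR5 at 8.43 ± 1.83 RPKM and CCR10 at 3.43 ± 0.958, overlap the exons of BCL9L and CNTNAP1, and the scavenging receptor CXCR7 (ACKR3) was at 1.05 ± 0.280. CXCR4 had no row, while its ligand CXCL12 read 21.98, 20.4 and 22.005 RPKM. Of 24 adhesion receptor genes of the G protein-coupled class 14 had a row, with GPR126 (ADGRG6) at 20.4 ± 3.80, CD97 (ADGRE5) at 20.3 ± 3.92 and the endothelial ELTD1 (ADGRL4) at 6.16, 13.6 and 7.40 RPKM, the last highest in replicate 2 at 34.4% GC. Of 48 nuclear receptor genes 30 had a row and 27 reached 1 CPM, and NR2F2 stood 2.48, 2.89 and 2.75 times above its paralogue NR2F1 (24.9 ± 5.62 RPKM). The lipid sensors NR1H2 and PPARD were at 24.8 ± 8.79 and 22.4 ± 3.32, and NR3C1, the glucocorticoid receptor, at 12.6 ± 3.24. The oestrogen receptor ESR1 and the progesterone receptor PGR had no row, and ESR2 was under 1 CPM throughout.

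Among 20 scavenger and lipid uptake receptors 13 had a row, with SCARA3 at 54.7 ± 8.61 RPKM, the collagen receptor MRC2 at 37.5 ± 12.5, and SCARB2 at 29.2 ± 5.68. LRP1 stood at 14.1 ± 5.77 RPKM and the HDL receptor SCARB1 at 12.2 ± 2.84. STAB2, OLR1, MSR1 and MRC1 had no row.

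Of secreted growth factors and their binding proteins, 54 of 78 genes had a row and 50 reached 1 CPM in every library. The highest were binding proteins: IGFBP7 read 506, 389 and 417 RPKM, IGFBP4 527, 321 and 459 and the follistatin-like FSTL1 234, 302 and 253. IGFBP7 and IGFBP4 were at about the same level by the longest transcript, with a ratio of 0.961, 1.21 and 0.907, but 0.758 on average by exon union. DKK3 and its relative DKK1, a Wnt antagonist, stood at 92.7 ± 4.96 and 74.03 ± 11.1 RPKM. The BMP antagonist GREM1 was at 52.97 ± 11.8 RPKM, and TGFB1 at 80.6, 40.2 and 68.6, lowest in replicate 2. TGFB1 was 3.99, 1.11 and 2.72 times TGFB2 per length, a ratio that fell close to 1 only in replicate 2, with transcripts of 63.5% and 38.9% GC.

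Vascular growth factors were lower. VEGFB stood at 24.7 ± 4.99 RPKM, VEGFC, the ligand of FLT4, at 11.7 ± 1.41, VEGFA at 3.20 ± 0.310, PGF at 4.80 ± 1.11 and FGF2 at 12.7 ± 4.67. The place of VEGFA turned on its longest transcript of 12167 bases. In CPM the means were 39.0 for VEGFA, 34.1 for VEGFB, 24.2 for VEGFC and 17.0 for PGF. By median transcript length VEGFA read 35.5 RPKM, against 41.6 for VEGFB, 17.1 for VEGFC and 12.1 for PGF. Endothelin-1 (EDN1) read 16.6, 26.1 and 19.2 RPKM, adrenomedullin (ADM) 10.8 ± 1.47 and apelin (APLN) 10.8 ± 5.52. ANGPT1, the activating ligand of TEK, had no row, and IGF1, HGF, EGF, AREG, BMP2 and WNT5A had none either.

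Of 38 cytokine and chemokine genes 24 had a row and 20 reached 1 CPM, and MIF was far the highest, at 570.4, 191 and 485 RPKM, lowest in replicate 2 at 66.7% GC. After MIF and CXCL12 the levels dropped to 6.71 ± 2.70 RPKM for CXCL1, 6.70 ± 0.424 for the monocyte attractant CCL2, 6.49 ± 0.721 for CLCF1, 4.99 ± 0.752 for IL11 and 4.56 ± 0.801 for IL8 (CXCL8). IL6 was at 1.63 ± 0.659 RPKM. CXCL2, CXCL3 and IL7 were under 1 CPM in every library, and IL1A, IL33, TNF, CCL5, CXCL10 and CX3CL1 had no row.

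Guidance ligands had 26 rows of 37 and 24 at 1 CPM. NTN4, a netrin that binds laminin in basement membranes, was well ahead at 113, 127 and 118 RPKM with little spread between the libraries. The semaphorins SEMA3F (55.5, 32.1 and 45.2 RPKM) and SEMA3C (19.4, 35.7 and 25.01) changed order with the library, and SEMA3F is 62.7% GC and SEMA3C 39.4%. SEMA4B, EFNB1 and SLIT2 followed at 14.7 ± 3.86, 14.3 ± 4.09 and 13.7 ± 0.112 RPKM.

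Matrix glycoprotein and proteoglycan genes had the largest summed level of the lists of secreted proteins, 27790, 29706 and 25720 CPM. Of 61 genes 47 had a row and 43 reached 1 CPM. After FN1 came THBS1 at 523, 696 and 508 RPKM, CTGF (CCN2) at 468, 554 and 454 and SPARC, a collagen-binding protein of remodelling tissue, at 449 ± 54.9. CYR61 (CCN1), a relative of CTGF, was more even than THBS1 and CTGF at 395, 379 and 391 RPKM. Next were EFEMP1 (fibulin-3) at 366 ± 55.7, TGFBI at 301 ± 47.02 and the proteoglycan biglycan, BGN, at 271 ± 50.7. FBN1, which forms microfibrils, read 116 ± 3.91 RPKM and was 1.88, 2.16 and 1.87 times FBN2. The basement membrane linker NID1 stood at 83.2 ± 7.79 RPKM. ELN (elastin), VTN (vitronectin), SPP1, ACAN and DCN had no row.

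Of 44 collagen genes 24 had a row and 22 reached 1 CPM in every library. COL1A1 read 595, 404 and 470.0 RPKM but COL1A2, its partner in the type I trimer, only 34.04, 34.6 and 31.4, a ratio of 17.5, 11.7 and 15 (18.8 by exon union). Type I collagen is usually made of a pair of alpha-1 chains and a single alpha-2 chain. The transcripts differ in GC content, 61.1% and 41.7%, and the ratio was smallest in replicate 2. COL3A1, the fibril partner of type I collagen in skin, was at 1.58 ± 0.196 RPKM, and COL1A1 exceeded it 394, 284 and 262 times. The type V chains COL5A1 and COL5A2 were at 105 ± 21 and 67.3 ± 1.74 RPKM and COL8A1, a chain of the network collagen of vessel walls, at 108, 105 and 108.

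Of the basement membrane chains, COL4A1 read 113, 100.3 and 103 RPKM and COL4A2 146, 83.8 and 121, a ratio of 0.769, 1.2 and 0.851 (1.25 by exon union) that crossed 1 between libraries. These genes lie head to head and are known to be transcribed in opposite directions from a shared promoter. The 126 bases between their RefSeq starts in GRCh38.p14, chr13:110307158-110307283, are printed on the plus strand, that of COL4A2, with the CCAAT box letters in capitals.
COL4A1 to COL4A2: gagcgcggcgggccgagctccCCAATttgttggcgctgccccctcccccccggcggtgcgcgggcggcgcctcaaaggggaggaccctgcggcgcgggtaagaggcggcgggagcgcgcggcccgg
Their GC content is 80.2%, and a search for CCAAT on both strands found 1 match. The same search found a match in 21.1% of all promoters in a window of that length. The other type IV chains were lower: COL4A5 at 22.997 ± 1.89 RPKM, COL4A6 at 3.14 ± 0.751 and COL4A4 at 0.0937 ± 0.0158, while COL4A3 had no row. COL18A1, the source of endostatin, read 48.7, 19.9 and 36.8 RPKM, lowest in replicate 2 at 67.2% GC.

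Of 12 laminin genes 10 had a row and 9 reached 1 CPM. LAMB1 and LAMC1, the beta-1 and gamma-1 chains, read 113, 120.1 and 114 and 83.4, 87.02 and 80.1 RPKM, a ratio of 1.36, 1.38 and 1.42 that hardly varied between libraries. By exon union the ratio was only 1.05 on average. Of the alpha chains known from endothelial basement membrane, LAMA4 was even at 27.7, 27.3 and 28.3 RPKM and LAMA5 uneven at 46.5, 15.9 and 31.6, the latter 66.4% GC. The epithelial chains LAMA3 and LAMB3 were at 3.06 ± 0.271 and 1.83 ± 0.214 RPKM. LAMA2, the muscle chain, was under 1 CPM in every library.

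Of 26 integrin genes 20 had a row and 16 reached 1 CPM. ITGB1, the beta chain shared by most matrix integrins, read 164, 271 and 192 RPKM, ITGA3, a laminin receptor chain, 184, 102 and 149.5 and ITGA5, the fibronectin receptor chain, 156, 128 and 140.0. ITGA5 and ITGA3 changed order between libraries, with a ratio of 0.85, 1.25 and 0.936. The vitronectin receptor chains ITGAV, ITGB5 and ITGB3 stood at 30.1 ± 10.9, 26.5 ± 2.75 and 20.4 ± 2.25 RPKM, and ITGA6 at 19.7 ± 3.47. The collagen receptor chains ITGA2 and ITGA1 were at 4.44 ± 0.904 and 2.86 ± 0.605 RPKM. The leukocyte chain ITGB2 was under 1 CPM with ITGB7 and ITGA2B, and ITGAL, ITGAM, ITGAX and ITGAD had no row.

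**Figure D4:**
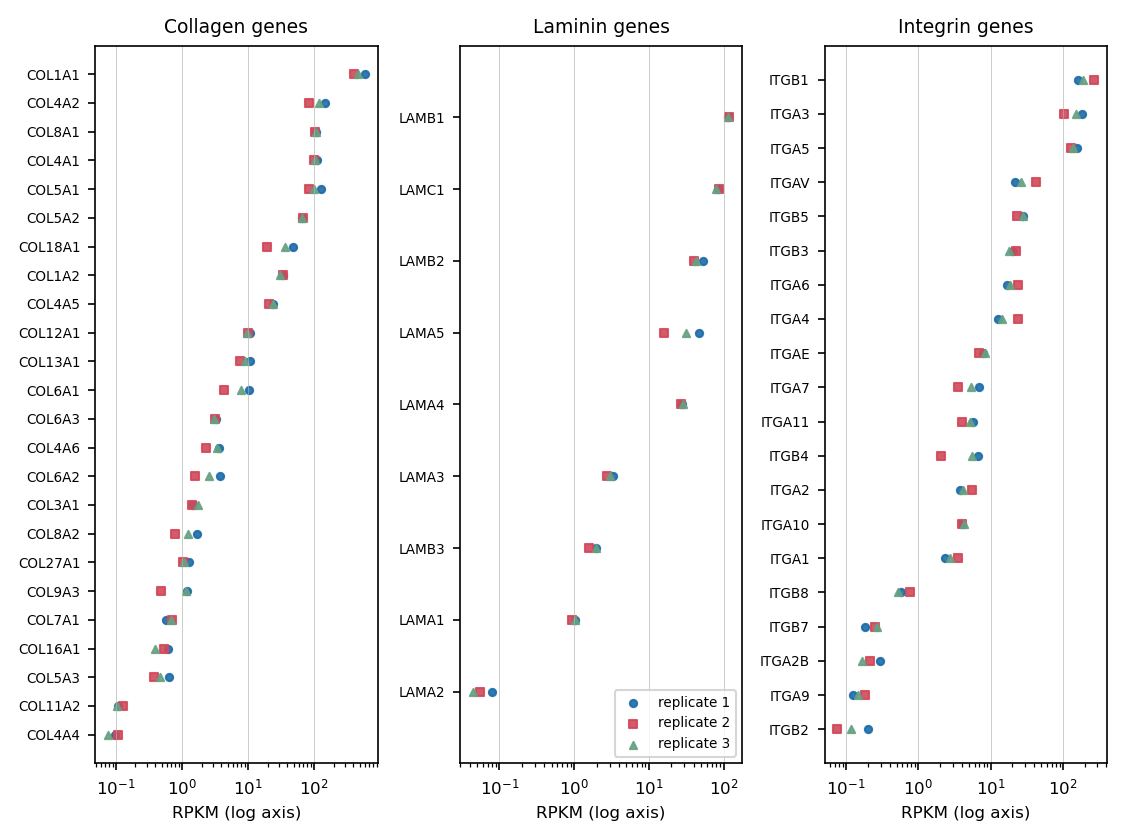
Levels of collagen, laminin and integrin genes with a row, 1 laminin left out, in RPKM on a log x axis, with 1 symbol per control library. COL1A1 lies far to the right of COL1A2 in every library, COL4A1 and COL4A2 overlap, and LAMB1 and LAMC1 lead the laminins at means of 116 and 83.5 RPKM.

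Enzymes that build matrix were complete, with 18 of 18 rows and 17 at 1 CPM in every library. LOXL2, a lysyl oxidase that crosslinks collagen IV, read 191, 123 and 169.8 RPKM, PLOD2, a lysyl hydroxylase, 116, 214 and 135, and SERPINH1, the collagen chaperone HSP47, 157, 98.6 and 138. TGM2, tissue transglutaminase, stood at 90.3 ± 21.02 RPKM, PXDN, which forms sulfilimine crosslinks in collagen IV, at 72.1 ± 13.3, and PLOD1 at 67.7 ± 10.6. PLOD2, at 34.4% GC, was highest in replicate 2 and the others of these were lowest there.

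Of 40 protease and inhibitor genes 29 had a row and 27 reached 1 CPM. The inhibitors TIMP2 (231, 235 and 220.4 RPKM) and TIMP1 (138, 106 and 141) stood above the metalloproteinases MMP14, the membrane enzyme that activates MMP2, at 121, 82.7 and 103, MMP2 at 32.97 ± 2.23 and MMP1 at 26.9 ± 4.30. TIMP2 was 1.91, 2.85 and 2.14 times MMP14 per length. The exons of MMP1 overlap the pseudogene WTAPP1 on the other strand. ADAM9 was at 144 ± 35.5 RPKM, and the lysosomal cathepsins CTSB and CTSD at 117 ± 12.1 and 84.2 ± 29.9. MMP10 was under 1 CPM in every library, and MMP3, MMP7, MMP8, MMP9, MMP12 and MMP13 had no row.

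Genes of the HOX clusters record position along the body axis. Of 39 genes 33 had a row and 31 reached 1 CPM in every library, though at low levels, with a median of 2.54 RPKM. Of paralogue groups 1 to 10, 28 of 30 genes reached 1 CPM, and of groups 11 to 13, 3 of 9. By cluster the count was 10 of 11 for HOXA, 7 of 10 for HOXB, 8 of 9 for HOXC and 6 of 9 for HOXD. The highest were in the HOXD cluster: HOXD4 read 16.5, 16.6 and 14.9 RPKM, HOXD9 18.8, 10.4 and 16.9, HOXD3 15.2, 13.3 and 14.3 and HOXD8 12.9, 13 and 12.6. HOXA7 followed at 13.9, 9.31 and 13.7 RPKM and HOXB6 at 7.19 ± 1.97.

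HOXA9, which is known to act in endothelium, stood at 4.44 ± 0.376 RPKM. HOXB2 and HOXB13 were under 1 CPM in at least 1 library, and HOXA13, HOXB1, HOXC12, HOXD11, HOXD12 and HOXD13 had no row. HOXB7 was read from the row whose identifier is the current one, at 5.65 ± 0.726 RPKM. Many HOX exons overlap antisense transcripts or neighbouring HOX genes, which counts of unknown strand cannot separate.

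**Figure D5:**
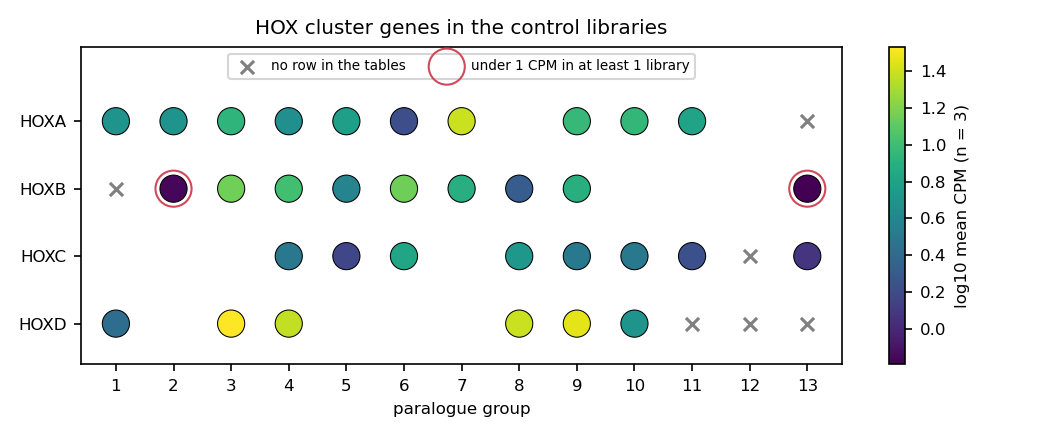
HOX genes by cluster on the y axis and paralogue group on the x axis, each filled circle coloured by log10 of the mean CPM over the 3 control libraries. Crosses mark genes without a row and rings those under 1 CPM in at least 1 library; 28 of 30 genes of groups 1 to 10 reached 1 CPM in every library against 3 of 9 of groups 11 to 13.

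Junction genes gave a partial set. Of 26 cadherin and catenin genes 13 had a row, and all 13 reached 1 CPM. The catenins CTNNA1 and CTNNB1, which link cadherins to actin, stood at 149.5 ± 5.41 and 106 ± 14.7 RPKM, p120 catenin, CTNND1, at 50.6 ± 2.71, and CDH24 at 13.9 ± 1.54. Of 32 claudin and tight junction genes 22 had a row and 16 reached 1 CPM. CLDN11 was the highest at 92.04, 76.04 and 84.3 RPKM, 10, 4.46 and 7.68 times CLDN12 (12.4 ± 4.13), and the scaffold gene TJP1 was at 19.96 ± 2.91. The junctional adhesion molecule F11R stood at 9.59 ± 1.08 RPKM and CLDN15 at 3.86 ± 0.814, while JAM2 had no row, like CLDN5. Of 20 connexin genes 7 had a row: GJA1 read 78.01, 144 and 95.1 RPKM, highest in replicate 2, and was 6.98, 10.6 and 7.7 times GJC1 (12.4 ± 1.23). GJA4 and GJA5, the arterial connexins, had no row.

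Of 34 mechanosensitive and calcium channel genes 23 had a row and 22 reached 1 CPM. PIEZO1, the channel that opens under shear, led at 63.7, 32.6 and 46.95 RPKM, followed by the inositol trisphosphate receptor ITPR3 at 24.9 ± 5.22, TRPV2 at 15.5 ± 2.35, the calcium sensor of the endoplasmic reticulum STIM1 at 13.2 ± 1.45, PKD2 at 11.1 ± 1.46 and STIM2 at 11.01 ± 1.34. TRPC6, TRPM2 and KCNJ2 had no row. Of 13 glucose transporter genes 9 had a row. SLC2A1, the GLUT1 transporter of endothelium, read 34.98, 22.5 and 31.4 RPKM and was 10.1, 5.3 and 7.88 times SLC2A3 (3.90 ± 0.393); the insulin-responsive SLC2A4 had no row.

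The cells carried messages of division. All 23 proliferation genes had a row and reached 1 CPM in every library, with a median of 67.7 RPKM. Growth itself was not measured. PCNA, the sliding clamp of DNA replication, read 171, 180.4 and 179 RPKM, TYMS (thymidylate synthase) 151, 138 and 151, CCNB1 (cyclin B1) 114, 149.6 and 134, the helicase subunit MCM7 124, 97.8 and 121, CDC20 122, 87.4 and 122 and the topoisomerase TOP2A 82.5, 139 and 104. MKI67, the gene of the Ki-67 antigen, stood at 67.7 ± 5.74 RPKM.

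Genes that brake the cycle were present beside them, with 12 of 12 rows and 11 at 1 CPM in every library. CDKN2A, which encodes p16 and ARF, read 325, 133 and 283 RPKM (247 ± 101, or 73.2 by exon union), lowest in replicate 2, and it shares exons with CDKN2B-AS1. CDKN1A (p21) stood at 102, 56.95 and 99.2 RPKM. RB1 read 17.5, 33.3 and 22.9 RPKM, highest in replicate 2 at 37.3% GC. CDKN2A exceeded CDKN1A 3.18, 2.34 and 2.85 times by the longest transcript but only 1.11 times on average by exon union. CDKN1B and CDKN2C were at 20.97 ± 1.80 and 19.3 ± 1.72 RPKM, and CDKN1C was under 1 CPM in every library.

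Methyltransferases, the enzyme class that the compounds of the other groups are meant to inhibit, were expressed in the control cells. Of 10 listed genes 9 had a row and all 9 reached 1 CPM. PRMT1, the main enzyme of asymmetric arginine dimethylation, read 144, 97.4 and 133 RPKM (125 ± 24.4, or 43.9 by exon union). PRMT5, which makes symmetric dimethylarginine, followed at 45.5, 51.3 and 48.9 RPKM and CARM1 (PRMT4), which methylates histone H3, at 44.6, 30.1 and 39.5. PRMT1 was 3.16, 1.9 and 2.72 times PRMT5 by the longest transcript but 1.25 times on average by exon union. PRMT2, SETD7, a lysine methyltransferase on the same list, and PRMT6 stood at 27.3 ± 2.72, 20.9 ± 2.27 and 9.63 ± 0.288 RPKM, and PRMT8 had no row.

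Near the limit of detection, 1124 rows were under 1 CPM in all 3 control libraries and 1675 in 1 or 2 of them. A count of 0 in at least 1 library occurred in 44 rows and in all 3 libraries in 0 rows, and the smallest control total of a row was 8. None of the rows found in a single table reached 1 CPM in every control library: their mean ran from 0.336 to 0.695 CPM for the AMI-1 table and from 0.143 to 0.802 CPM for the AMI-5 table.

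The highest of these single-table rows were mostly processed pseudogenes. RP11-179A18.1 (RPSAP29) had 33, 4 and 1 counts, FKBP9L (FKBP9P1) 24, 6 and 9, GAPDHP68 21, 7 and 10, Z97634.5 23, 8 and 3 and AC012501.3 28, 4 and 1. All 5 were highest in replicate 1, the shallowest library, and as copies of expressed genes their reads cannot be told from those of the parents. Of the listed endothelial genes, HEY2 and BST2 stood in the AMI-5 table only.

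The spread between libraries was set against the levels. Over 10842 rows with a mean of at least 10 CPM the median SD of log2(CPM + 1) was 0.25, with quartiles of 0.14 and 0.38, and 1138 rows were above 0.5 and 28 above 1. The biological coefficient of variation from edgeR was 22.6%, and 10.9% without replicate 2. Replicate 2 was the library farthest from the mean in 73.8% of these rows. After a lowess curve on GC content was taken off each library, the median SD was 0.10, and rows above 0.5 went from 1106 to 124 among the 10617 with a known GC content.

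Of the 10 most uneven rows, 6 were copies of abundant transcripts. MTRNR2L8, a nuclear copy of the mitochondrial large ribosomal RNA, had 471, 2 and 7 counts, RP11-316P21.1 (EEF1A1P22) 565, 16 and 18, RPLP0P2 553, 32 and 35, and RNA18S5, an 18S ribosomal RNA copy, 3358, 174 and 2910. The first 3 of these were high in replicate 1 only, and RNA18S5 was low in replicate 2 only. ACTBP7 and ACTBP11, beta-actin pseudogenes, had 2216, 282 and 1982 and 2233, 320 and 2053 counts. RP11-69I8.3, which overlaps CTGF on the other strand, RP11-758N13.1, which overlaps GREM1, AL161626.1 and UTS2D (UTS2B), which overlaps CCDC50, completed the 10, each lowest in replicate 2.

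The most even rows were protein-coding genes of middle GC content. DENND5A, a regulator of Rab proteins, read 149.7, 150.1 and 149.6 CPM, the replication helicase subunit MCM4 379, 377 and 377 and PSMC5, a proteasome ATPase, 199, 199 and 197. The others of the 10 were MTHFD1L, SCAF4, CHEK2, ZNF185, DNAAF2, PTCD2 and DDX27. All 10 transcripts lay between 41.9% and 53.7% GC, around the median of 48.2%.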

How the data were processed

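Poly-A RNA of 9 HMEC-1 libraries was sequenced, and the 3 DMSO controls were used. The authors deposited raw read counts per gene in a table for each compound. BWA, bedtools and hg19 are named per the submitters' processing notes; not given in the sources used here are versions, annotation and strand setting. The 18690 rows of both tables were joined by identifier, and lists were matched by current identifier, then symbol. CPM used the total count of all rows. Length and GC content came from GENCODE v29 (GRCh38), known for 17879 rows (95.7%), and promoters from RefSeq. Spread was the SD of log2(CPM + 1) and the dispersion of edgeR 4.0.16 in R 4.3.3, tested on simulated data. Alternatives were TMM, DESeq2 1.42.0 size factors, rows of both tables, each replicate left out, other minimums, pseudocounts and lengths, and a GC correction. No comparison between groups was made. Members and the 49 lists were chosen with earlier results of these data known. Named genes were the 20 highest rows by CPM and by RPKM, up to 6 per list, the markers, endothelial genes without a row or under 1 CPM, the 10 most and least even rows and the 5 highest single-table rows; further members were named after their values were seen. Some genes that this rule names are not reported here. Intervals cover counting error only.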

Additional observations from a re-analysis of the deposited data

How the results depend on the processing

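TMM and DESeq2 size factors left every result reported here within its spread, and the number of genes with at least 1 CPM in every library, 15891, was the same with them. That number ran from 16022 to 16254 when a library was left out, and was 17407 at 0.5 CPM and 14227 at 2 CPM. Of 441 counts over the 49 gene lists, 439 stayed within 1.5 times; the leukocyte list dropped to 1 gene at 2 CPM and the erythroid and platelet list rose to 1 at 0.5 CPM. Genes under 1 CPM in all libraries numbered 1283 to 1528 with a library left out. The length decided levels between genes more than any library did. FN1, rank 22 by RPKM, came at rank 32 with the exon union and 8 with the median transcript length, and at 20 to 21 with a library left out. The median transcript length moved 555 of 775 listed genes by more than 1.5 times and kept 8 of the 20 highest rows, while leaving out a library moved at most 3. The median SD of log2(CPM + 1) ran from 0.11 without replicate 2 to 0.33 with a library left out and was 0.10 after GC correction, and the biological coefficient of variation ran from 10.9% without replicate 2 to 30.5%. The settings for ratios and for single listed genes were added after seeing the data. No paired analysis was possible because the controls are a single group and the results come from no test. For genes that were counted but have no row, statements are limited to about 1.06 CPM by the smallest mean count of a row, 10, and not by depth. Rows under 1 CPM rest on few counts in each library.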
